A study of Homo sapiens with 61 samples.

Results

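The replication-dependent histone genes are the 68 protein-coding genes on chromosomes 1 and 6 whose GENCODE symbols start with H1-, H2AC, H2BC, H3C or H4C followed by a number, out of 19970 protein-coding genes with a start site. They were chosen by symbol and chromosome, and the family was proposed with its H3K4me3 covered lengths in these lists already known, so its levels are not tested. They comprised 6 H1, 17 H2A, 18 H2B, 13 H3 and 14 H4 genes, 13 on chromosome 1 and 55 on chromosome 6. H3K4me3, trimethylation of lysine 4 of histone H3, was mapped by chromatin immunoprecipitation and sequencing in U2OS cells, a human osteosarcoma line, of 2 genotypes: ASH1L–/– cells, which carry CRISPR/Cas9 deletions in the histone methyltransferase gene ASH1L, and wild-type cells. Unirradiated cells of each genotype were compared with cells 1 h and 3 h past exposure to UV-C (20 J/m2), with 3 biological replicates in each of the 6 groups, which gave 18 peak lists. The DNA damage sensor XPC was mapped in the same 6 groups, in 19 lists, with 4 in unirradiated wild-type cells and 3 in each other group. By the study's methods, edited cells were grown from isolated colonies. How many such colonies these libraries come from is not given in the sources used here, so genotype and cell line cannot be told apart. The question asked of these genes was where their promoters carried called H3K4me3 peaks, and how those peaks differed by genotype and after UV.

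Replication-dependent histone genes supply the histones that package newly copied DNA, and their messages accumulate in S phase. They have no introns, lie in clusters, and end in a stem-loop in place of a poly(A) tail. NPAT, a coactivator bound at these clusters, stimulates their transcription, and SLBP, the stem-loop binding protein, acts in the processing and translation of their messages. H3K4me3 marks active promoters, mostly on the nucleosomes beside the start site. H2A, H2B, H3 and H4 form the nucleosome core, and H1 binds the linker DNA.

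All 68 genes had 1 exon, and they fell into 5 clusters. The largest, with 34 genes over 559.0 kb, ran from chr6:25726562-26285534 between its first and last start sites (hg38), and also held 7 other protein-coding genes. Further along the same chromosome, 5 genes lay at chr6:27132795-27147106 and 16 at chr6:27807929-27893425. Chromosome 1 held 11 genes at chr1:149812370-149887965 and 2 at chr1:228457873-228458103. The 68 genes formed 39 groups of overlapping 4 kb promoter windows, 52 genes shared a window with another member, and 26 stood in 13 divergent pairs whose start sites lay within 1 kb of each other. Members that share a window share peaks and are not independent.

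The divergent H2A and H2B pairs printed here show what lies between the 2 start sites of such a pair. The sequences are the plus strand of hg38 with CCAAT (the CCAAT box), TATAAA (the TATA box) and ATTTGCAT (the octamer), or their reverse complements, in capitals. The H2BC8 and H2AC8 pair had H3K4me3 peaks in ASH1L–/– lists and in no wild-type list, the H2BC11 and H2AC11 pair had peaks in all lists, and the H2AC1 and H2BC1 pair had none.
H2BC8 to H2AC8, chr6:26216689-26216920: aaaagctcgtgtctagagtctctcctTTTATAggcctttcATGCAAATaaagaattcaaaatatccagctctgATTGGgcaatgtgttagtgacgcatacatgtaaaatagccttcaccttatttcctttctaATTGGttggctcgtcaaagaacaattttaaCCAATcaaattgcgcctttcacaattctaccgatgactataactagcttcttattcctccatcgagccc
H2BC11 to H2AC11, chr6:27132796-27133042: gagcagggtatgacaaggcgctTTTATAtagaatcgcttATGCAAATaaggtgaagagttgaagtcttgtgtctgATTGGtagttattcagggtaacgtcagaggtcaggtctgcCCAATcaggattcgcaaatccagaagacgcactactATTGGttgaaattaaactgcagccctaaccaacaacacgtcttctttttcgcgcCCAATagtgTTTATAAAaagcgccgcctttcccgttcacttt
H2AC1 to H2BC1, chr6:25726563-25726776: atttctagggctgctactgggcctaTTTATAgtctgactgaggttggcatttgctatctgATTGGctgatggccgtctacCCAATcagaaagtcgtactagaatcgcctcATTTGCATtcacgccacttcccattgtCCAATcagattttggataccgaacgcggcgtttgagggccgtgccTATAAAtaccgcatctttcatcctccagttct
The 3 motifs each occurred in all 3 stretches. Their lengths were 232, 247 and 214 bases and their G and C contents 38.4%, 43.7% and 47.7%, in the order printed.

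RefSeq promoter sequences of GRCh38.p14, from 250 bases before to 50 after the start, matched 63 of the 68 genes. H4C1, H4C3, H2AC12, H3C11 and H3C12 had no entry. On either strand, CCAAT was found in 54 of the 63 (85.7%), against 36.6% of 15311 promoters in the table, and TATAAA in 41 (65.1%), against 9.6%. The octamer ATTTGCAT, the site of OCT1, occurred in 26 (41.3%), against 1.7%, and these included 14 of 18 H2B and 11 of 16 H2A promoters. CCAAT stood in only 3 of 12 H4 promoters and in every matched promoter of the other families. GGTCCG, the core of the H4 element bound by HINFP, occurred in 11 of 12 H4 promoters and in 14 members in all (22.2%), against 14.6% of the table. AAACACA, found in H1 promoters, occurred in 6 of 6 H1 genes and in 9 members (14.3%), against 4.3%. The promoters of a divergent H2A and H2B pair overlap, so a motif between their start sites can count at both genes. The members are thus not independent in these shares. The counts are matches of letters and not measured binding.

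The stem-loop was searched for in the 200 bases past the stop codon, as 6 paired bases starting GG and a loop of 4 bases with at least 2 T. It was found in 66 of the 68 members, 25 to 70 bases past the stop codon, and in 87 of all 19970 genes (0.44%). The most frequent forms show how the H4 genes differ, with the loop in capitals and T for the U of the message.
40 members of the H1, H2A, H2B and H3 families: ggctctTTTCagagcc
9 H4 members: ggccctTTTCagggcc
9 members of the H1, H2A, H2B and H3 families: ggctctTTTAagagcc
4 further H4 members: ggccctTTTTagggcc
The remaining 4 members with a match had a form of their own. No match was found at H2AC11 and H2AC15.

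The H3K4me3 lists held 72984 to 142688 peaks and covered 70.1 to 132.4 Mb. Covered length was 79.4 to 107.5 Mb in irradiated and 74.3 to 91.7 Mb in unirradiated ASH1L–/– lists, and 97.2 to 132.4 Mb in irradiated and 70.1 to 93.3 Mb in unirradiated wild-type lists. The lists hold peaks and no read counts, and the read totals that the study states for each library were not used here. Of 7 mesenchymal and osteoblast marker promoters, 5 (RUNX2, PRRX1, COL1A1, SPARC and VIM) had a peak in all 18 lists, and TWIST1 and COL1A2 had none. No list had a peak at the 4 blood markers. EPCAM had a peak in all 18 lists, over a mean of 0.563 kb in ASH1L–/– and 0.862 kb in wild-type cells, KRT5 in 4 lists, and CDH1 and GRHL2 in none. ALB and HNF4A had none, and APOA1 had one in 16 lists. The deletions in ASH1L lie outside its promoter window, so the mark does not check the knockout.

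A promoter window spanned 2 kb on either side of the start site, and the measure was the length of it under called peaks, in kb, with 4 kb as its ceiling. Of the 68 histone promoters, 39 (57.4%) had a peak in all 18 lists, 6 in some and 23 (33.8%) in none. Over all protein-coding promoters the corresponding shares were 66.8% in all lists and 23.4% in none. In pooled cells, fewer cells with the mark and less of the mark per cell cannot be told apart. Without 6 genes at which few reads can be placed, described below, peaks stood in all lists at 39 of 62 (62.9%) and in none at 17 (27.4%). These 6 were picked from the genes without a peak, so leaving them out can only raise the share with peaks. H2AC18 and H2AC19, where 31.5% of reads were placed, had peaks and were kept. These levels are a description.

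**Figure D1:**
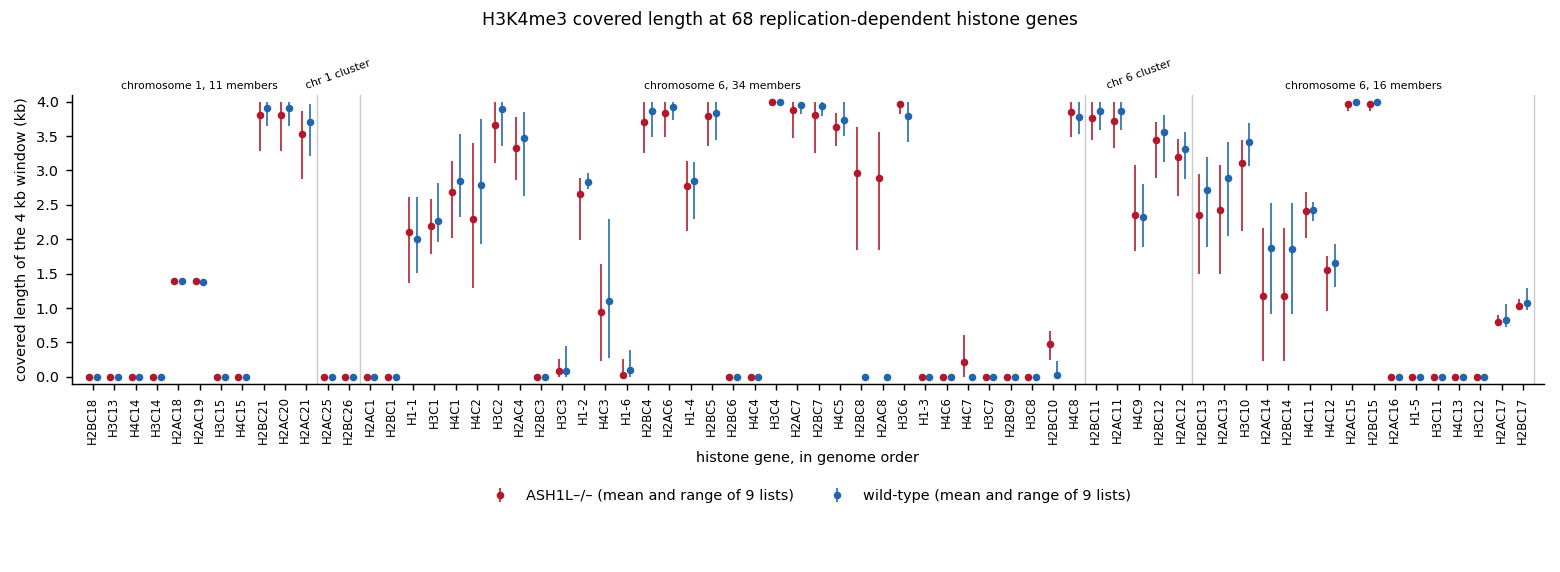
H3K4me3 covered length (kb of the 4 kb window) at the 68 histone genes in genome order, with ASH1L–/– to the left of wild-type. Points are means and bars the range of 9 lists. Most genes sat either near the 4 kb ceiling or at 0, and H2BC8 and H2AC8 were the pair at 0 in all wild-type lists and above 1.8 kb in all ASH1L–/– lists.

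The mark was counted by histone family, with no test between families. Peaks stood in all 18 lists at 13 of 17 H2A genes, 10 of 18 H2B, 8 of 14 H4, 5 of 13 H3 and 3 of 6 H1 genes. Median covered length was 2.66 kb for H2A, 1.498 kb for H2B, 1.31 kb for H4, 1.06 kb for H1 and 0 kb for H3. The H3 median rests on 3 of the genes at which few reads can be placed. Without the 6 such genes, all at 0 kb, it was 1.16 kb for 10 H3 genes, 1.97 kb for 12 H4 genes and 1.51 kb for 17 H2B genes. Leaving out genes at 0 kb cannot lower a median. The member with the longest mean coverage was H3C4 among H3 (3.999 kb), H2AC15 and H2BC15, which share a window, among H2A and H2B (3.99 kb each), H4C8 among H4 (3.81 kb) and H1-4, a linker histone, among H1 (2.81 kb). The shortest was 0 kb in every family, with ties.

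By cluster, all 5 genes of the smallest chromosome 6 cluster and 11 of the 16 farther along had peaks in all lists. In the 34-gene cluster 18 had peaks in all lists, 6 in some and 10 in none. On chromosome 1, 5 of 11 genes of the larger cluster had peaks in all lists and 6 in none, and both genes of the smaller cluster, H2AC25 and H2BC26, had none. Of the other genes inside the 34-gene cluster, TRIM38 (2.63 kb in ASH1L–/– and 2.39 kb in wild-type cells) had peaks in all lists. ENSG00000282988 starts at the same base as H2AC7 and so has the same window and values as that member. The sodium phosphate transporter genes SLC17A1, SLC17A2, SLC17A3 and SLC17A4, and the iron regulator gene HFE, had none.

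The 23 genes without a peak were of 2 kinds when simulated 100-base reads from their windows were placed on chromosomes 1 and 6. Copies on other chromosomes were not searched, so the shares placed may be too high. At 6 of them, the chromosome 1 genes H2BC18, H3C13, H4C14, H3C14, H3C15 and H4C15, only 0.0% to 8.7% of reads were placed with a mapping quality of 30, the minimum kept by the authors, and no XPC list had a peak there either. Those windows could hardly be measured. At the other 17 genes, 95.9% to 100.0% of reads were placed and 6 to 19 XPC lists had a peak. They were H2AC25, H2BC26, H2AC1, H2BC1, H2BC3, H2BC6, H4C4, H1-3, H4C6, H3C7, H2BC9, H3C8, H2AC16, H1-5, H3C11, H4C13 and H3C12. H2AC18 and H2AC19, where 31.5% of reads were placed, had nearly constant coverage: H2AC18 had 1.36, 1.40 and 1.39 kb in unirradiated ASH1L–/– lists, against 1.38, 1.38 and 1.38 kb in unirradiated wild-type lists.

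H2BC8 and H2AC8, a divergent pair encoding H2B and H2A, were covered in all 9 ASH1L–/– lists and in none of the 9 wild-type lists. H2BC8 (start at 26216688 on chromosome 6, minus strand) was covered over 1.86, 3.02 and 1.84 kb in unirradiated, 3.14, 3.53 and 3.08 kb in 1 h and 3.07, 3.63 and 3.52 kb in 3 h ASH1L–/– lists, against 0 kb in every wild-type list. H2AC8 (start at 26216921, plus strand) was covered over 1.86, 2.89 and 1.84 kb, 3.15, 3.37 and 3.08 kb, and 2.89, 3.55 and 3.43 kb in the same ASH1L–/– lists, against 0 kb in every wild-type list. The groups did not overlap, and the 2 windows largely share their peaks. Unirradiated, ASH1L–/– exceeded wild-type by 2.24 kb at H2BC8 (SE 0.235 kb, limma adjusted p = 5.9e-05) and by 2.199 kb at H2AC8 (SE 0.216 kb, limma adjusted p = 3.12e-05). Among all 19970 promoters, these windows ranked 1 and 2 in the excess of mean covered length over the 9 ASH1L–/– lists. Peaks in all 9 ASH1L–/– lists and in no wild-type list occurred at 13 promoters, of which these were 2, and the reverse at 8, with no member.

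Peaks at this pair reached lower enrichment than the 12.24-fold median of the tested members. The highest fold enrichment over input in the H2BC8 window was 4.42, 4.91 and 4.87 in unirradiated, 8.17, 7.56 and 6.64 in 1 h and 7.21, 9.92 and 5.29 in 3 h ASH1L–/– lists, against no peak in any wild-type list. With peaks of at least 5-fold enrichment alone, the unirradiated difference was 0 kb at both genes (adjusted p = 1). Both genes reached the test through the ASH1L–/– lists alone, and were called as well when no filter was applied. All simulated reads were placed in both windows, with chromosomes 1 and 6 alone searched. XPC peaks stood in the H2BC8 window in 6 of 9 ASH1L–/– and 5 of 10 wild-type lists.

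In each ASH1L–/– list, separate peaks stood on either side of the pair's promoter and left 159 to 615 bases between them. The peak on the H2BC8 side spanned 978 to 1761 bases and the peak on the H2AC8 side 734 to 1927 bases. The 232 bases printed above, which hold the TATA box, the octamer and 3 CCAAT matches, were under no peak at all in 5 of 9 lists and fully covered in none. The 2 neighbouring members, H4C5 on one side and H3C6 on the other, had peaks in all 18 lists of both genotypes.

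Farther along the cluster, H2BC10 and H4C7 had short peaks almost only in ASH1L–/– lists. H2BC10 was covered over 0.266, 0.250 and 0.471 kb in unirradiated, 0.519, 0.620 and 0.556 kb in 1 h and 0.367, 0.673 and 0.613 kb in 3 h ASH1L–/– lists, against 0.233 kb in 1 wild-type list at 3 h and 0 kb in the other 8. Its unirradiated difference of 0.33 kb did not pass (SE 0.092 kb, limma adjusted p = 0.0595). H4C7 was covered over 0.310, 0.331 and 0 kb at 1 h and 0.612, 0.351 and 0.298 kb at 3 h in ASH1L–/– lists, and over 0 kb in all 3 unirradiated ASH1L–/– and all 9 wild-type lists. H1-3, H4C6, H3C7, H2BC9 and H3C8, in the same cluster, had no peak in any list. The other members at the edge of the filter, which required a peak in 3 lists, were H3C3 with 5 lists (3 ASH1L–/–, 2 wild-type) and H1-6 with 4 (1 ASH1L–/–, 3 wild-type). No member had a peak in 1 or 2 lists, so the 23 left out were at 0.

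**Figure D2:**
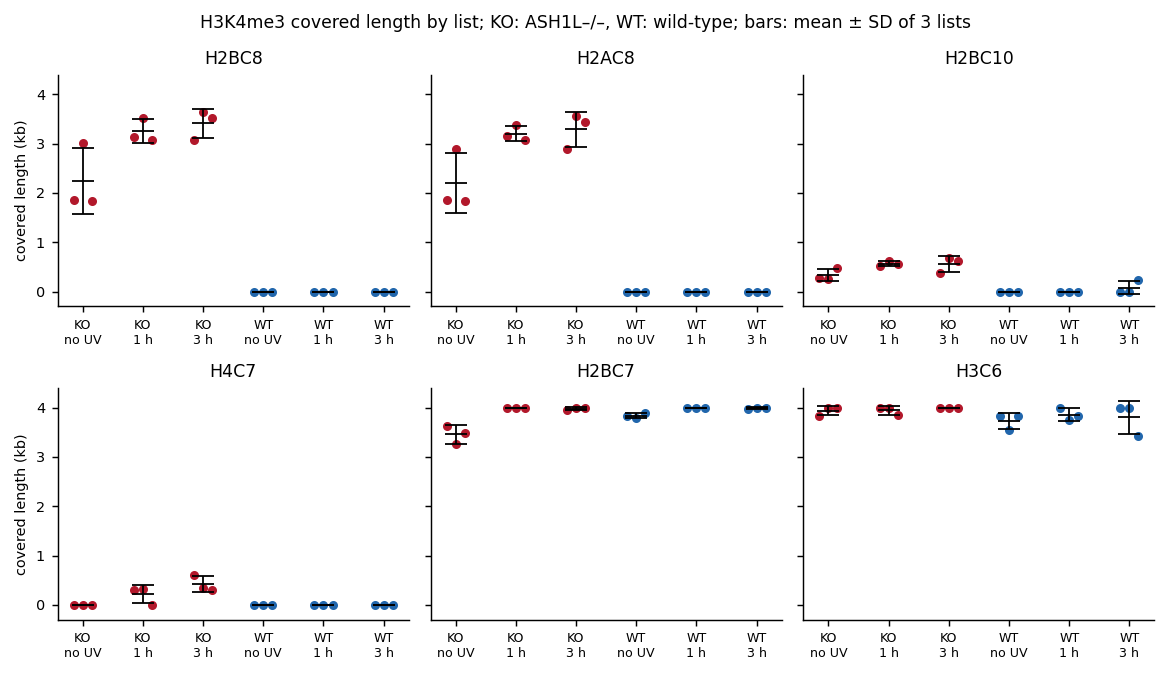
H3K4me3 covered length (kb) in each list for 6 histone genes. Points are lists, with ASH1L–/– (KO) to the left of wild-type (WT), and bars are the mean ± SD of 3. H2BC8 and H2AC8 lie at 0 in all wild-type lists, while H2BC7 and H3C6 are near the 4 kb ceiling in both genotypes.

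Among the 45 members tested, 8 differed between unirradiated genotypes, 2 higher and 6 lower in ASH1L–/– cells. The 2 higher were H2BC8 and H2AC8 (4.44% of the 45, against 2.88% called higher among the 14745 promoters tested). The 6 lower, where 1.11% of all promoters were called lower, were H3C2, H2BC4, H2AC6, H2AC7, H2BC7 and H2AC11, in 4 window groups. Peaks covered more than 3 kb of each of these windows in both genotypes, summed over the separate peaks of a window. H3C2, an H3 gene, was covered over 3.23, 3.30 and 3.11 kb in unirradiated ASH1L–/– lists, against 3.36, 3.87 and 3.78 kb in unirradiated wild-type lists, a difference of -0.45 kb (SE 0.103 kb, limma adjusted p = 0.0222). H2BC7 had 3.63, 3.25 and 3.48 kb in ASH1L–/– and 3.82, 3.80 and 3.89 kb in wild-type lists (difference -0.38 kb, SE 0.068 kb, limma adjusted p = 0.00602). H2BC4 had 3.35, 3.25 and 3.26 kb in ASH1L–/– and 3.49, 3.56 and 3.77 kb in wild-type lists (difference -0.32 kb, SE 0.071 kb, limma adjusted p = 0.0186). H2AC6 had 3.59, 3.49 and 3.51 kb in ASH1L–/– and 3.74, 3.79 and 3.77 kb in wild-type lists (difference -0.24 kb, SE 0.039 kb, limma adjusted p = 0.00306). The genotypes did not overlap at these 4 genes. Over all 45 members the median difference was -0.15 kb, with 37 lower and 7 higher in ASH1L–/– cells, against a median of 0.02 kb over all promoters tested. When each list's covered lengths were brought to 1 common total, H3C2, H2BC4, H2AC6 and H2BC7 no longer passed (adjusted p = 1 each). With windows of 1 kb on either side, H2AC6 (adjusted p = 0.221) and H3C2 (adjusted p = 0.394) no longer passed. Leaving out unirradiated ASH1L–/– replicate 3 reduced the 8 calls to 5, with H3C2 (adjusted p = 0.0951) and H2BC4 (adjusted p = 0.07) among those lost. For that setting the share of all promoters called is not given here.

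After UV, covered length at the histone promoters rose in both genotypes and fell at no member past the threshold. In ASH1L–/– cells 32 of the 45 (71.1%) were higher in irradiated lists, the mean of 1 h and 3 h, than in unirradiated lists, where 24.0% of all promoters were called higher and 0.258% lower. In wild-type cells 23 of the 45 (51.1%) were higher, against 30.5% of all promoters called higher and 0.0271% lower. The ASH1L–/– calls include H4C7, H2BC8 and H2AC8, which reached the test only through ASH1L–/– lists, and H4C7 had peaks only in irradiated ones. H2BC10, also among these calls, had a peak in 9 ASH1L–/– lists and 1 wild-type list, so it too met the filter through ASH1L–/– lists. The 32 stood in 20 window groups and the 23 in 13. The median change of the 45 members was 0.44 kb in ASH1L–/– and 0.26 kb in wild-type cells, against 0.17 and 0.20 kb over all promoters in the same order. All 45 members had a positive change in ASH1L–/– and 39 in wild-type cells. Both genotypes called 22 of these genes, which is 68.8% of the ASH1L–/– calls and 95.7% of the wild-type calls, and H4C9 passed in wild-type cells alone. The same overlap over all promoters is not given here, so these shares are not shown to be particular to the histone genes.

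By family, the ASH1L–/– calls were 3 of 4 tested H1 genes, 10 of 14 H2A, 10 of 12 H2B, 2 of 6 H3 and 7 of 9 H4. The wild-type calls were 1 of 4 H1, 9 of 14 H2A, 7 of 12 H2B, 2 of 6 H3 and 4 of 9 H4. Windows already full before irradiation, such as that of H3C4, could not gain.

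H4C2, an H4 gene, gained the most in ASH1L–/– cells. It was covered over 1.71, 1.49 and 1.29 kb in unirradiated, 2.57, 3.40 and 2.08 kb in 1 h and 2.90, 2.66 and 2.49 kb in 3 h ASH1L–/– lists, and over 2.30, 1.93 and 2.43 kb, 2.57, 2.85 and 3.38 kb, and 2.98, 3.75 and 2.91 kb in the same wild-type groups. All irradiated lists lay above the unirradiated lists of their genotype. The change was 1.19 kb in ASH1L–/– (SE 0.255 kb, limma adjusted p = 0.00672) and 0.85 kb in wild-type cells (SE 0.255 kb, limma adjusted p = 0.0246). H4C3, another H4 gene, gained the most in wild-type cells, by 0.96 kb (SE 0.26 kb, limma adjusted p = 0.0166): its irradiated wild-type lists had 1.26, 1.16 and 1.83 kb at 1 h and 0.962, 1.03 and 2.30 kb at 3 h, against 0.465, 0.267 and 0.655 kb in unirradiated wild-type lists. With peaks of at least 5-fold enrichment alone, neither H4C2 (adjusted p = 0.114) nor H4C3 (adjusted p = 0.25) passed in wild-type cells. Without unirradiated wild-type replicate 2 neither passed (adjusted p = 0.152 and 0.103), and without replicate 1 of that group H4C2 did not (adjusted p = 0.0551).

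The H2AC14 and H2BC14 pair gained 0.96 kb at each gene in ASH1L–/– cells (limma adjusted p = 0.0154 and 0.0153) and 0.92 and 0.90 kb in wild-type cells (limma adjusted p = 0.0161 and 0.0178). H2AC14 was covered over 0.931, 0.440 and 0.229 kb in unirradiated, 2.17, 1.89 and 0.990 kb in 1 h and 1.09, 1.36 and 1.45 kb in 3 h ASH1L–/– lists, and over 0.918, 0.990 and 1.86 kb, 2.45, 2.52 and 2.16 kb, and 2.12, 1.695 and 2.13 kb in the same wild-type groups. One unirradiated wild-type list, at 1.86 kb, lay above the lowest irradiated one. With equal numbers of peaks per list, H2AC14 no longer passed in ASH1L–/– (adjusted p = 0.256) or wild-type cells (adjusted p = 0.0845), nor with windows of 1 kb on either side (adjusted p = 0.0718 and 0.105). Without unirradiated replicate 2 of the genotype, it did not pass in ASH1L–/– (adjusted p = 0.0662) or wild-type cells (adjusted p = 0.11), nor without ASH1L–/– replicate 3 (adjusted p = 0.0597) or wild-type replicate 1 (adjusted p = 0.0714).

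H1-4, the linker histone gene with the longest coverage, varied little between lists of a group. It was covered over 2.98, 2.97 and 3.00 kb at 1 h and 3.12, 3.14 and 3.05 kb at 3 h in ASH1L–/– lists, against 2.11, 2.28 and 2.27 kb in unirradiated ASH1L–/– lists. The corresponding wild-type values were 3.07, 3.13 and 2.99 kb at 1 h and 2.95, 2.94 and 3.12 kb at 3 h, against 2.30, 2.40 and 2.70 kb. Its change was 0.82 kb in ASH1L–/– (SE 0.079 kb, limma adjusted p = 4.3e-05) and 0.56 kb in wild-type cells (SE 0.079 kb, limma adjusted p = 0.000572). H2BC8 and H2AC8 gained 1.09 kb (SE 0.203 kb, limma adjusted p = 0.00343) and 1.05 kb (SE 0.187 kb, limma adjusted p = 0.0029) in ASH1L–/– cells and stayed at 0 in wild-type cells. The difference between these changes did not pass (adjusted p = 0.0957 and 0.0795).

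**Figure D3:**
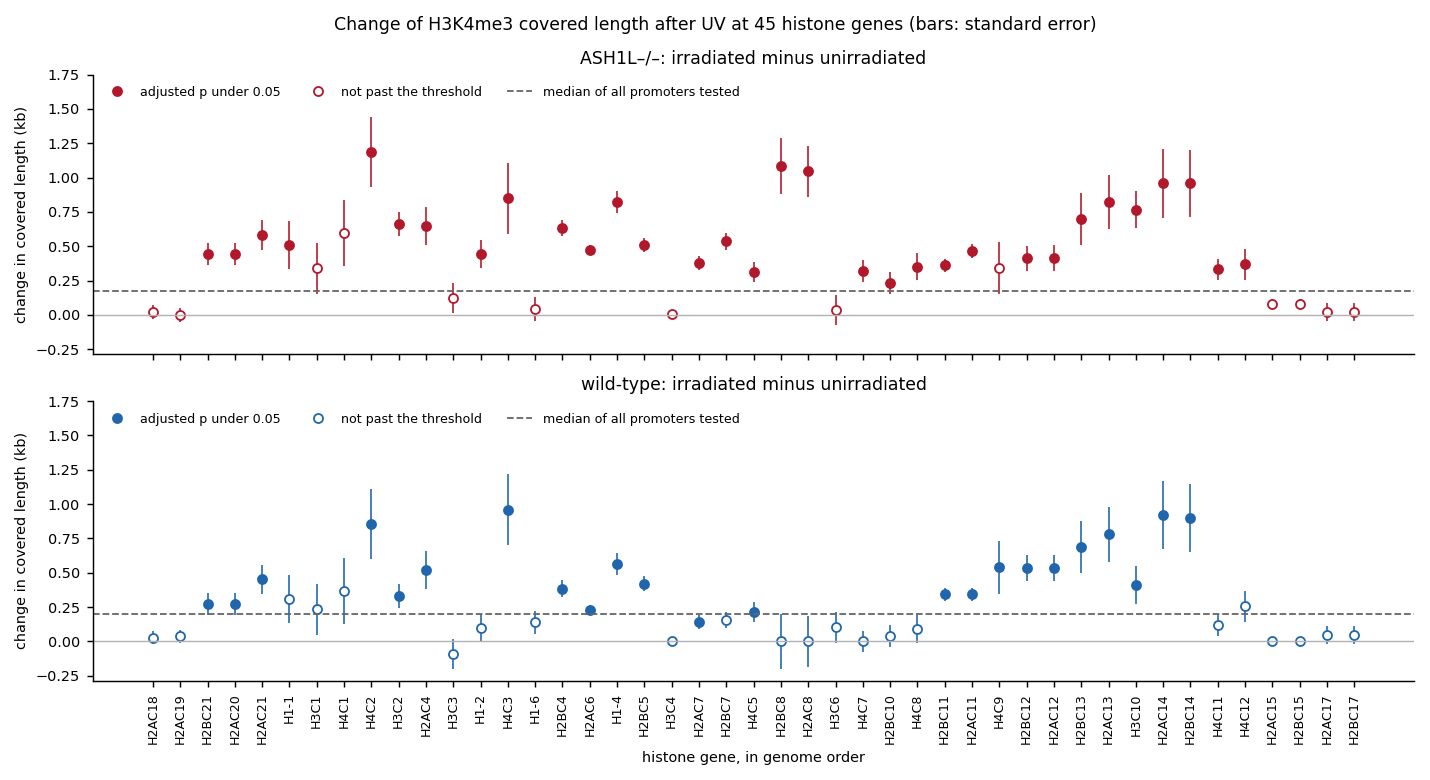
Change of H3K4me3 covered length after UV (kb, irradiated minus unirradiated) at the 45 histone genes tested, in genome order, for ASH1L–/– (top) and wild-type (bottom). Bars are standard errors, filled points passed the adjusted p threshold of 0.05 and the dashed line is the median of all promoters tested. Calls numbered 32 in ASH1L–/– and 23 in wild-type cells.

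Total covered length also rose with UV, as the ranges in Mb above show, and its part in these changes was not tested. When each list was scaled to the same total, the wild-type calls among the members became 1 higher and 23 lower, H4C2 changed by -0.045 kb (adjusted p = 0.886), and calls over all promoters became 390 higher and 7710 lower, against 4494 higher and 4 lower without scaling. The median of all promoters in wild-type cells was then -0.61 kb, against 0.20 kb without scaling, and the ASH1L–/– calls among the members numbered 4, without H2BC8 (adjusted p = 0.273) and H2AC8 (adjusted p = 0.165). Leaving out unirradiated wild-type replicate 2 reduced the 23 wild-type calls to 10, and leaving out replicate 1 of that group to 14. Not given here are the direction of the 4 scaled ASH1L–/– calls and the share of all promoters called beside them. Nor are the shares of all promoters called on leaving out a replicate.

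The test of the genotype difference in UV change passed at 2 members, both limited by the 4 kb ceiling. H2AC6 gained 0.24 kb more in ASH1L–/– than in wild-type cells (SE 0.048 kb, limma adjusted p = 0.0294) and H2BC7 0.38 kb more (SE 0.084 kb, limma adjusted p = 0.0449), where 0.190% of all promoters were called higher and 0.868% lower. Irradiated lists of both genotypes sat at or just under the 4 kb ceiling at both genes. The test there therefore restates the lower unirradiated values in ASH1L–/– cells given above, with the sign turned, and does not measure a difference in the response. With each list scaled to the same total neither passed (adjusted p = 0.378 each), and the call was lost on leaving out any of 8 of the 18 lists for H2AC6 and any of 16 for H2BC7. The median over the 45 members was 0.12 kb, against -0.02 kb over all promoters.

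Between 3 h and 1 h, 0 members passed in either genotype in the limma fit. Unadjusted p was under 0.05 at 5 of 45 members in ASH1L–/– and 3 in wild-type cells. Of all 14745 promoters tested, it was under 0.05 at 2160 and 1300 in that order. Of all promoters, 0.0543% were called higher and 0.753% lower in ASH1L–/– cells, and 0.115% and 0.190% in wild-type cells. The smallest p in ASH1L–/– cells belonged to H2BC11 (-0.15 kb, limma adjusted p = 0.192), H2AC11 (-0.15 kb, limma adjusted p = 0.202) and H2BC13 (-0.50 kb, limma adjusted p = 0.315). In wild-type cells they were H2AC17 (0.21 kb, limma adjusted p = 0.392), H2BC17 (0.21 kb, limma adjusted p = 0.395) and H1-1 (-0.49 kb, limma adjusted p = 0.488).

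Around the start site, histone promoters carried a gap in H3K4me3 peaks that was shallower in irradiated lists. Other promoters carried a smaller gap, which was hardly seen in irradiated wild-type lists. At 100 bases before the start, 50.7% ± 8.1 of the 45 histone promoters lay under a peak in irradiated ASH1L–/– lists (SD, n = 6), against 17.8% ± 5.9 in unirradiated ones (n = 3). In wild-type lists the shares were 62.9% ± 1.8 irradiated (n = 6) and 25.9% ± 6.8 unirradiated (n = 3). The irradiated and unirradiated ranges did not overlap in either genotype, at 37.8% to 62.2% and 11.1% to 22.2% in ASH1L–/– and 60.0% to 64.4% and 20.0% to 33.3% in wild-type lists. At 14700 other promoters with peaks the shares were 68.5% and 57.0% in ASH1L–/– and 82.2% and 66.2% in wild-type lists, irradiated before unirradiated. At -400 bases, the other promoters had 71.6% in unirradiated ASH1L–/– and 73.7% in unirradiated wild-type lists. The histone promoters had 60.7% and 62.2% there. In irradiated lists the other promoters had 77.4% in ASH1L–/– and 81.2% in wild-type cells at -400 bases. In the 9 divergent pairs with peaks in all lists, every base between the 2 start sites was covered in 28 of 54 pair and list combinations in irradiated and 1 of 27 in unirradiated ASH1L–/– cells. The corresponding counts were 35 of 54 in irradiated and 3 of 27 in unirradiated wild-type cells. These shares are a description with no test.

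**Figure D4:**
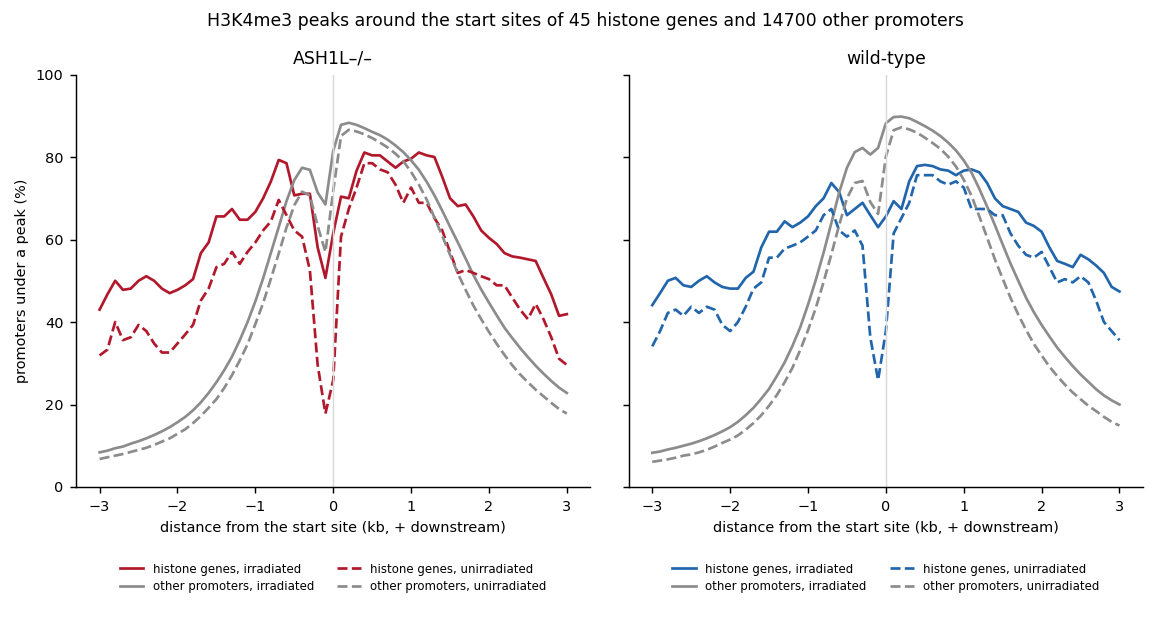
Share of promoters (%) under an H3K4me3 peak by distance from the start site (kb), for 45 histone genes (coloured) and 14700 other promoters (grey), in ASH1L–/– (left) and wild-type (right) lists. Lines are means over irradiated (solid) and unirradiated (dashed) lists. The unirradiated histone line drops to 17.8% in ASH1L–/– and 25.9% in wild-type lists at 100 bases before the start.

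Peak height, the highest fold enrichment of any peak overlapping the window, was compared on a log2 scale. A peak counts with its whole height, so members with separate windows can share a peak. In wild-type cells 17 of the 45 members (37.8%) were higher after UV, where 26.6% of all promoters were called higher and 0.0746% lower. In ASH1L–/– cells 5 members (11.1%), H4C2, H4C5, H4C9, H2BC12 and H2AC12, were higher, where 3.54% were called higher and 0.387% lower. The median log2 change of the members was 0.26 in ASH1L–/– and 0.47 in wild-type cells, against 0.22 and 0.39 over all promoters in that order. With heights centred on the median promoter of each list, the wild-type calls fell to 4. Without unirradiated wild-type replicate 2 they were 9. For both alternatives the share of all promoters called is not given here.

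H4C2 rose in height in both genotypes. Its fold enrichment was 15.5, 12.5 and 12.2 at 1 h and 12.4, 15.3 and 13.9 at 3 h in ASH1L–/– lists, against 6.77, 8.77 and 6.61 in unirradiated ASH1L–/– lists. In wild-type lists it was 14.6, 19.1 and 13.5 at 1 h and 15.9, 16.2 and 14.8 at 3 h, against 7.29, 6.17 and 7.15 unirradiated. In wild-type replicates 2 and 3 at 3 h the H3C2 window had the same heights. Irradiated and unirradiated lists did not overlap, and the log2 change was 0.89 in ASH1L–/– (SE 0.183, limma adjusted p = 0.00786) and 1.19 in wild-type cells (SE 0.183, limma adjusted p = 0.000131). The H2BC12 and H2AC12 pair rose by 1.11 on the log2 scale in ASH1L–/– cells (SE 0.252, limma adjusted p = 0.0169). In the same cells H4C9 rose by 0.91 (limma adjusted p = 0.0225) and H4C5 by 0.85 (limma adjusted p = 0.0172). The H4C9 rise is not a separate one: its heights in all irradiated ASH1L–/– lists equalled those of the H2BC12 and H2AC12 pair. The summit of its highest peak lay a median of 6246 bases past its start, outside its window. The H2AC15 and H2BC15 pair, at the ceiling in length, rose by 1.01 in wild-type cells (limma adjusted p = 0.00673). With no filter on low values, H2BC12 and H2AC12 (adjusted p = 0.0916) and H4C9 (adjusted p = 0.101) did not pass, and without unirradiated ASH1L–/– replicate 3 neither these (adjusted p = 0.12 for the pair and 0.174 for H4C9) nor H4C2 (adjusted p = 0.0565) did. Without unirradiated wild-type replicate 2, H2AC15 and H2BC15 did not pass (adjusted p = 0.0684), nor with centred heights (adjusted p = 0.108).

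H1-2, a linker histone gene, was the 1 member whose change in height differed between genotypes. Its fold enrichment was 11.6, 13.3 and 6.10 at 1 h and 5.89, 7.34 and 7.45 at 3 h in ASH1L–/– lists, against 8.64, 9.21 and 8.43 in unirradiated ASH1L–/– lists. In wild-type lists it was 17.02, 21.2 and 14.1 at 1 h and 20.5, 18.5 and 15.5 at 3 h, against 11.1, 6.48 and 9.0 unirradiated. The irradiated wild-type lists all lay above the other groups. The log2 change was -0.10 in ASH1L–/– (limma adjusted p = 0.823) and 1.03 in wild-type cells (SE 0.221, limma adjusted p = 0.00175), a difference of -1.12 (SE 0.313, limma adjusted p = 0.0338). Of all promoters, 0.197% were called higher and 3.99% lower in this comparison. The call was lost with no filter on low values (adjusted p = 0.127), and on leaving out any of 9 of the 18 lists.

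Unirradiated heights differed by genotype at 3 members, H2BC8, H2AC8 and H2BC10, all with a peak in each unirradiated ASH1L–/– list and none in the wild-type ones. All 3 met the filter through ASH1L–/– lists, and a list without a peak entered the fit at the floor of 1. These calls therefore restate that peaks were present or absent, and do not compare the heights of peaks. No member was lower in ASH1L–/– cells, where 1.05% of all promoters were called higher and 12.6% lower. The median log2 difference was 0.0 over the members and -0.34 over all promoters. The H2BC10 peaks had a fold enrichment of 3.27, 2.86 and 4.1 in unirradiated ASH1L–/– lists. With heights centred on the median promoter, 12 members were called, all higher in ASH1L–/– cells. The share of all promoters called with that centring is not given here.

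XPC covered length passed the threshold at no histone promoter in any comparison made. The XPC peaks were broad calls against XPC-deficient cells, 17 of the 19 lists held exactly 500000 peaks, and 62 members had peaks in enough lists to be tested. In the limma fit 0 members passed after UV in ASH1L–/– or wild-type cells or between unirradiated genotypes, where 0.00% of the 18991 promoters tested were called in either direction. Unadjusted p was under 0.05 at 4, 6 and 1 members in that order, against 965, 1483 and 986 of the 18991 promoters. Mean covered length over the members was 0.83 ± 0.53 kb in unirradiated, 0.555 ± 0.292 kb in 1 h and 0.461 ± 0.2 kb in 3 h ASH1L–/– lists (SD, n = 3 each). In wild-type lists it was 0.856 ± 0.656 kb unirradiated (n = 4), 0.481 ± 0.277 kb at 1 h and 0.599 ± 0.298 kb at 3 h (n = 3 each). Over all promoters the means were 1.055, 0.702 and 1.004 kb in ASH1L–/– and 1.102, 0.723 and 0.978 kb in wild-type lists, in the same order. The member means include the 6 windows at which few reads can be placed, which were at 0 kb in every XPC list. Replicate 1 of unirradiated wild-type cells stood apart, with a mean of 1.83 kb over the members against 0.509, 0.675 and 0.414 kb in the other 3 lists, and it was the highest of the 4 at 45 members. Without it the unirradiated wild-type mean was 0.533 ± 0.132 kb (n = 3), next to the 1 h and 3 h values, and 0 members passed. Replicate 1 of unirradiated ASH1L–/– cells had 1.43 kb, against 0.458 and 0.597 kb in the other 2.

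The members nearest the threshold for XPC were H4C9 (-1.28 kb, limma adjusted p = 0.579), H4C2 (-1.25 kb, limma adjusted p = 0.899) and H4C7 (-0.56 kb, limma adjusted p = 0.951) after UV in ASH1L–/– cells. After UV in wild-type cells they were H2BC4 (-1.04 kb, limma adjusted p = 0.49), H2BC12 (-1.63 kb, limma adjusted p = 0.535) and H2AC12 (-1.63 kb, limma adjusted p = 0.536). Between unirradiated genotypes they were H4C6 (0.76 kb, limma adjusted p = 0.931), H4C13 (-1.47 kb, limma adjusted p = 1) and H3C11 (-1.25 kb, limma adjusted p = 1).

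Genes that work with the histone genes lie elsewhere in the genome and were counted by list. Of 15 histone genes outside the members' rule, such as the variant genes H2AX and H3-3A, 12 had peaks in all lists and H3-5, H2AB1 and H2BK1 had none. Covered length rose after UV at 5 of these 12 in ASH1L–/– and 2 in wild-type cells, where 24.0% of all promoters rose in ASH1L–/– and 30.5% in wild-type cells. Of 14 genes of histone transcription and its cell cycle control, 3 rose in ASH1L–/– and 4 in wild-type cells, and of 17 genes of message end processing, 5 and 4 in the same order. Of 17 chaperone genes, 5 rose in ASH1L–/– and 4 in wild-type cells. None of these genes fell.

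NPAT was covered over a mean of 3.70 kb in ASH1L–/– and 3.84 kb in wild-type lists. ATM, also among the transcription genes counted above, had the same means. The values are thus not shown to be those of NPAT alone, and both genes may not be independent in those counts. At NPAT the change after UV was 0.01 kb in ASH1L–/– (limma adjusted p = 0.862) and 0.15 kb in wild-type cells (SE 0.041 kb, limma adjusted p = 0.0156). SLBP was covered over 3.74 kb in ASH1L–/– and 3.995 kb in wild-type lists and passed in no comparison. CASP8AP2, which encodes the histone locus body protein FLASH, was covered over 2.88 kb in ASH1L–/– and 2.74 kb in wild-type lists, and rose by 0.35 kb after UV in ASH1L–/– cells (limma adjusted p = 0.0366). HINFP, the H4 gene factor, was covered over 2.22 kb in ASH1L–/– and 2.16 kb in wild-type lists. It changed by 0.14 kb in ASH1L–/– (limma adjusted p = 0.234) and by 0.28 kb in wild-type cells (limma adjusted p = 0.0258). The differences between genotypes in these changes did not pass for any of the 4.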

How the data were processed

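The authors trimmed reads (Trim Galore 0.6.5), aligned them to hg38 without chromosome Y (BWA 0.7.17-r1188), removed duplicates, blacklisted regions and reads of mapping quality under 30 (Picard, SAMtools 1.7, bedtools 2.29.2), and called peaks in each library with MACS2 2.2.7.1, with input as the control of H3K4me3 (narrow) and XPC-deficient cells as that of XPC (broad). The deposited lists give each peak's position, fold enrichment as a ratio over control, and −log10 of p and q values. Input and XPC-deficient libraries were not used here. Libraries are labelled as biological replicates, and p-values measure the spread between them. The lists hold no read counts, and the study's read totals were not used here. Calling per list lets depth move how much is called.

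Each GENCODE gene had 1 window of 2 kb on either side of its MANE (19016) or canonical (954) start. Covered kb, and log2 of the highest fold enrichment with a floor of 1, were fitted with limma 3.58.1 (R 4.3.3, trend and robust, 6 group means, two-sided) over windows covered in at least 3 lists, with Benjamini-Hochberg adjustment over all tested promoters and a threshold of 0.05. The fit was tested on simulated data. Simulated reads of 100 bases, every 10 bases, were placed with BWA 0.7.19 on chromosomes 1 and 6 alone. Tables were handled in Python 3.11.15 with pandas 2.3.3 and numpy 2.4.6. Motifs were searched on both strands. The members, gene lists and tests were chosen with earlier results of these data known. Named members were the 4 largest called increases and decreases of a comparison (or the 3 smallest p where none passed), the longest and shortest of each family, members at the edge of the filter, and NPAT, SLBP, CASP8AP2 and HINFP. H2AC18, H4C5, H3C6 and the genes at 0 were chosen after their values were seen. Same-numbered replicates were checked for pairing. Alternatives changed the window, peak threshold, peak number, scaling, filter, centring, pseudocount, block and replicates.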

Additional observations from a re-analysis of the deposited data

Results flagged for a closer look

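The change of H3K4me3 covered length after UV differed between ASH1L–/– and wild-type cells at H2AC6, by 0.24 kb, and at H2BC7, by 0.38 kb, in a test of the difference itself. Irradiated windows of both genotypes were at or just under the 4 kb ceiling there, so the test restates the lower unirradiated values in ASH1L–/– cells, and the call was lost on leaving out any of 8 of the 18 lists at H2AC6 and any of 16 at H2BC7. The change of peak height at H1-2 differed in the same test, by -1.12 on the log2 scale, and that call was lost on leaving out any of 9 lists.

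In XPC lists of unirradiated wild-type cells, replicate 1 was flagged against the other 3 at H2AC8 and H2BC8. The covered length there was 0.341 kb in replicate 1 and 0 kb in the other 3 lists. The gap to the nearest list was therefore the group's whole range (ratio 1.0 at each gene). With 3 lists at 0 kb, any covered length in replicate 1 gives this ratio, so the flag does not measure how far it stood apart. The 2 windows share that peak. The same replicate had the highest covered length of the 4 at 45 of the 68 members, with a mean of 1.83 kb over the members against 0.414 to 0.675 kb in the other 3. Chance alone would flag about 1 in 20 groups of values free of a floor, a rate that does not hold for these values. Groups of 3 were not tested.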

How the results depend on the processing

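Values here are counts of members called, in either direction unless stated. The shares of all promoters called under each alternative are not given in this section. The counts therefore show how the calls move, and not whether members were called more often than other promoters. With each list scaled to the same total, the change after UV called 4 members in ASH1L–/– cells and 24 in wild-type cells, 23 of these lower (H4C2 -0.045 kb), the unirradiated genotype difference 4, and the genotype difference in UV change 0. With peaks of at least 5-fold enrichment, the UV change called 17 in ASH1L–/– and 4 in wild-type cells, the genotype difference in UV change 6, and 3 h against 1 h in ASH1L–/– cells 2. With no filter, the genotype difference in UV change called 1 member in length and 4 in height, and the UV change in height in ASH1L–/– cells 2. With centred heights, the calls were 4 for UV in wild-type cells, 12 for unirradiated genotypes and 5 for the genotype difference in UV change.

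Leaving out each list in turn gave 23 to 33 calls in length for UV in ASH1L–/– and 10 to 25 in wild-type cells, 5 to 9 for unirradiated genotypes (5 without unirradiated ASH1L–/– replicate 3), 0 to 3 for the genotype difference in UV change and 0 to 0 for 3 h against 1 h in both genotypes. In height it gave 2 to 7 calls for UV in ASH1L–/– (2 without 1 h replicate 1 or without unirradiated replicate 2 or 3, and 3 without unirradiated replicate 1) and 9 to 24 in wild-type cells, 3 to 3 for unirradiated genotypes, 0 to 6 for the genotype difference in UV change, and 0 to 0 for XPC throughout. The cause of these moves was not tested.

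Deviations of same-numbered replicates correlated at -0.11 to 0.29 in length, with a median of 0.0953 and 18 of 45 values over 0.1. Between replicates of different number the median was -0.036, with 3 of 90 over 0.1. In XPC length same-numbered values reached 0.437, against 0.244 otherwise. Same-numbered replicates were thus weakly alike in length, and the main fit did not model this. With the replicate block, calls in length were 32 for UV in ASH1L–/– and 23 in wild-type cells. They were 9 for unirradiated genotypes and 3 for the difference in UV change. In height the block gave 5, 17, 3 and 1 in that order, and 0 for XPC. The remaining alternatives, 69 values of this kind with the block included, stayed within 1.5 times the main count. With the gene's 5′ end as start site, an alternative chosen after seeing the data, 41 members had a peak in all lists and 21 in none. Also added after seeing the data were the families without those genes at 0 kb at which few reads can be placed (H3 median 1.16 kb, against 0 kb with them). The XPC mean without unirradiated wild-type replicate 1 (0.533 kb, against 0.856 kb with it) was added then too. The lists hold no read counts and the study's read totals were not used here, so no depth limit is given, and windows at the 4 kb ceiling cannot show a gain.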
